A study of Mus musculus with 28 samples.

Results

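The comparison described here set sorted mouse rod photoreceptors at postnatal day 6 (P6) against the average of the same cells at postnatal days 4 and 10 (P4 and P10), and asked which genes stood above or below both neighbouring ages together. It used 12 of the 28 arrays of the series, 4 at P6, 4 at P4 and 4 at P10, chosen by the age in their titles. The other 16 arrays, at P2, P12, P21 and P28, entered only the estimate of the spread and the time courses. All animals were C57Bl/6 mice carrying Nrlp-GFP, a reporter transgene that places green fluorescent protein (GFP) under control of the Nrl promoter. GFP-positive retinal cells were collected by flow sorting, with a re-sort purity of at least 97%, and 5 ng of their total RNA was amplified for Affymetrix Mouse Exon 1.0 ST arrays. No animal was treated, the labels describe the retina as wild-type, and age is the only difference between the groups that they give. The sort selected cells by reporter fluorescence and not by a surface protein of rods. The labels do not say how many animals gave each array or whether arrays of 1 age came from separate litters, and p-values therefore reflect only how far these samples spread, some of it perhaps technical.

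Rods are the dim-light photoreceptors of the retina. Nrl, a leucine zipper transcription factor, directs newly postmitotic precursors to the rod fate, and rods are born over a long period that ends in the first postnatal week in the mouse. Bipolar cells, the interneurons that rods contact, and Müller glia, the radial glia of the retina, are the other late-born cell types and come from the same progenitors in the same days. Rods are postmitotic, and their outer segments and the bulk of the phototransduction proteins form later than P6. A gene that moves steadily from P4 to P10 lies between both ages at P6, whereas a gene that is transiently on at P6 lies above both.

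Levels are given on the deposited log2 scale of the RMA method, on which a difference of 1 is 2-fold. The median gene had a mean level of 6.92 over all arrays, with quartiles at 5.87 and 8.10. A gene was called when the Benjamini-Hochberg adjusted p of limma over all 14860 genes was under 0.05 and the difference was at least 2-fold. A called gene was counted as a peak when P6 was also above P4 and above P10, each with an adjusted p under 0.05, and as a trough in the reverse case. The sorted cells carried Nrl at 9.65, 9.98, 9.79 and 9.88 at P6, against 9.87, 9.82, 9.80 and 9.79 at P4 and 10.00, 9.92, 9.95 and 9.94 at P10, a difference of -0.06 ± 0.07 (SE, adjusted p = 0.689) that was not called. The 24 measured rod genes had a mean level of 9.53 to 9.84 in the P6 arrays, 9.01 to 9.13 in the P4 arrays and 10.88 to 11.10 in the P10 arrays, far above the median gene at each age. Array medians ran from 6.91 to 7.00 at P6, 6.87 to 6.93 at P4 and 6.78 to 6.85 at P10. P6 replicate 1 had the highest median of the 12, and its correlation with the other arrays of its age, 0.971, was the lowest, the next being 0.980. The median of all genes was 0.06 above the average of P4 and P10 at P6, which is small beside the 2-fold threshold.

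Excess at P6 was far more common than deficit. Of 14860 genes, 114 were higher at P6 than the average of P4 and P10 (0.767%) and 12 were lower (0.0808%). Of the 114, 50 were peaks (0.336%), with the secreted protein gene Otor, the LIM-homeodomain gene Isl1 and the Wnt inhibitor gene Apcdd1 among the largest. Another 61 of the 114 were above P10 but did not pass the test against P4. A further 2 were below P4 and above P10, and 1 passed neither separate comparison. No trough was called by limma (0%), and 1 gene met the trough rule at 2-fold with unadjusted p under 0.05. By adjusted p alone, with no size threshold, 767 genes were higher (5.16%) and 154 lower (1.04%), of which 105 were peaks and 4 were troughs. Without P6 replicate 1 the counts were 51 higher genes (0.343%), 9 lower genes (0.0606%), 27 peaks (0.182%) and 0 troughs. The counts of higher genes and of peaks were 189 and 76 without P6 replicate 2, and 187 and 79 without P6 replicate 4.

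The peaks were tall against the whole course. The median P6 level of the 50 genes was 7.92, against 6.37 at P4 and 6.30 at P10, and the median level was 6.40 at P2, 6.54 at P12, 5.87 at P21 and 5.96 at P28. The P6 mean was the highest of the 7 ages in 50 of the 50 (23.8% of all genes). All 4 P6 arrays lay above the 8 arrays of P4 and P10 in 43 of the 50 (1.24% of all genes), and above all 24 other arrays of the series in 27 of the 50 (0.437% of all genes). These medians and counts describe genes that were chosen for high values in the same P6 arrays, so the shares over all genes are given as background and are no test of the peaks.

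**Figure D1:**
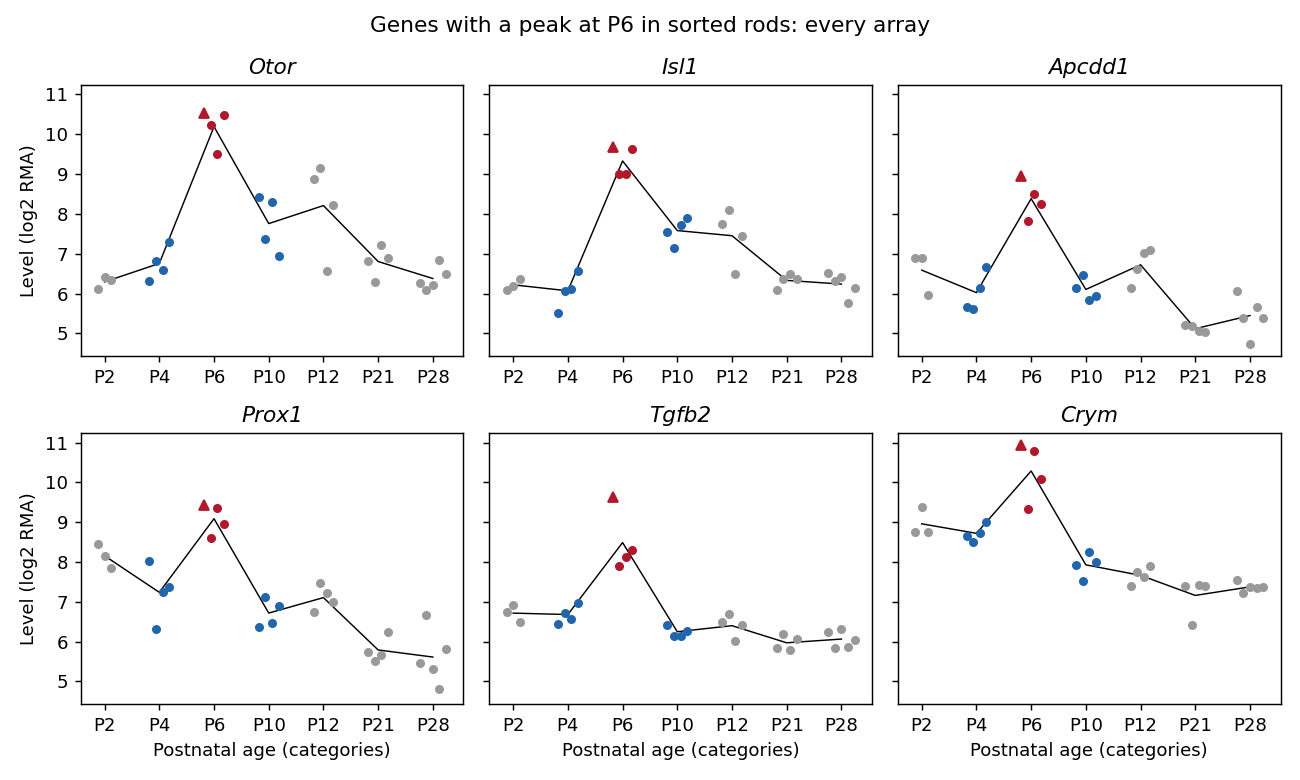
Log2 RMA level (vertical) of 6 peak genes in every array by age (horizontal, in order of age and not to scale). Red marks are P6 arrays, with replicate 1 as a triangle, blue marks are P4 and P10 arrays, grey marks are the other ages, and the line joins the age means. In Otor and Isl1 all but 1 of the P12 arrays lie above the P4 arrays, whereas Tgfb2 is near its level of the other ages everywhere but P6.

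Otor (otoraplin, a small secreted protein first known from the cochlea) had the largest excess. Its levels were 10.54, 10.24, 9.50 and 10.49 at P6, against 6.32, 6.81, 6.59 and 7.30 at P4 and 8.42, 7.38, 8.29 and 6.94 at P10, a difference of 2.93 ± 0.34 (SE, adjusted p = 6.95e-06) or 7.65-fold, and without P6 replicate 1 it was 2.82 (adjusted p = 0.000119). All 4 P6 arrays lay above every array of the other ages. The level did not return at once to that of P2: it averaged 7.76 ± 0.72 at P10 and 8.21 ± 1.17 at P12 (SD, n = 4 each) and was 6.80 at P21 and 6.38 at P28.

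Isl1 (a homeodomain factor found in bipolar cells and in some amacrine and ganglion cells) came next. Its levels were 9.69, 9.01, 9.00 and 9.63 at P6, against 5.52, 6.08, 6.11 and 6.57 at P4 and 7.55, 7.15, 7.73 and 7.89 at P10, a difference of 2.51 ± 0.22 (SE, adjusted p = 1.74e-07) or 5.68-fold, and without P6 replicate 1 it was 2.39 (adjusted p = 3.47e-06). The P6 arrays did not overlap with either neighbour, and the 4 P10 arrays all lay above the 4 P4 arrays. Isl1 averaged 6.22 at P2, 7.45 at P12 and 6.24 at P28.

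The 250 bases upstream of the RefSeq start of genes with large peaks are shown for Otor and Isl1, the largest excesses, and for Tgfb2, described below with the signalling genes. Coordinates are those of GRCm38.p6, a later build than the mm8 mapping of the probes, and the strand is that of the gene. Capitals mark TAATCC, a core recognised by the OTX and CRX homeodomain factors of photoreceptors and bipolar cells, searched on both strands. Of the sequences shown, those of Isl1 and Tgfb2 hold it. The windows of Prox1, which had a larger excess than Tgfb2, and of Car10, Kcnma1, Rlbp1 and Vsx1 are not shown and held 0 matches. Otor lies on the plus strand at chr2:143078143-143078392, Isl1 on the minus strand at chr13:116309689-116309938 and Tgfb2 on the minus strand at chr1:186705990-186706239.
Otor: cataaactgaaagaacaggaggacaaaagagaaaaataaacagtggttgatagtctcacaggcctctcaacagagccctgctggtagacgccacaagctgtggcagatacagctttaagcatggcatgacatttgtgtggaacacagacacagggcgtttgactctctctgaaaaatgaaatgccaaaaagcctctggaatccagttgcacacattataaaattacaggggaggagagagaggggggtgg
Isl1: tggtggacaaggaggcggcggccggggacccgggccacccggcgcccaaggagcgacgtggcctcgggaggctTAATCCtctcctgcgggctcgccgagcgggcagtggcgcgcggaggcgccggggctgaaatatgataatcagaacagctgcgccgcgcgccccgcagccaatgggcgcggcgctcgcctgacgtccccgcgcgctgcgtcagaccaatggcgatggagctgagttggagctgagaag
Tgfb2: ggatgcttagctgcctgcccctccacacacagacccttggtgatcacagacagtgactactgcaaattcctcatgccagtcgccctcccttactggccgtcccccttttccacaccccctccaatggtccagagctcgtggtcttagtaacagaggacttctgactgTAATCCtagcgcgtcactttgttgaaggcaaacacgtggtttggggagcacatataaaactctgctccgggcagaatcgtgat
RefSeq windows were at hand for 35 of the 50 peak genes, and 3 of the 35 (8.57%) held TAATCC in at least 1 window, against 6.64% of 11894 genes. TAATTA, a core of LIM and other homeodomain factors, also searched on both strands, was in 1 of 35 (2.86%), against 4.56%. These counts are given as a description. A match to 1 of the cores is not a match to the other, and a match describes letters, not a bound site.

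Some of the higher genes were members of the bipolar list. All gene lists were chosen with earlier results of these data known, so their counts are a description and no test. The bipolar list had 24 measured genes, of which 4 were higher than the average of P4 and P10 (0.767% of all genes were), all as peaks, and 0 were lower. With no size threshold 9 were higher (5.16% of all genes were), adding Gsg1 (0.74), Fezf2 (0.68), Grm6 (0.45), Tacr3 (0.44) and Prdm8 (0.39). Of the 24 genes 19 lay above 0 (64.4% of all genes did), and their median difference was 0.36, against 0.06 over all genes. The 4 peaks were Isl1, Car10, Grik1 and Vsx1. Car10, a carbonic anhydrase-related protein without enzyme activity, stood at 8.84, 8.05, 8.17 and 8.12 at P6, against 6.10, 5.79, 5.78 and 6.34 at P4 and 6.57, 6.43, 7.32 and 6.96 at P10, a difference of 1.88 ± 0.26 (SE, adjusted p = 4.39e-05), and every P6 array was above every P4 and P10 array. Grik1, the kainate receptor subunit of OFF bipolar cells, stood at 8.54, 6.72, 6.63 and 6.70 at P6, against 5.24, 5.21, 5.03 and 5.38 at P4 and 5.61, 5.70, 6.18 and 5.61 at P10, a difference of 1.65 ± 0.27 (SE, adjusted p = 0.000366). P6 replicate 1 stood apart in Grik1, but the other 3 P6 arrays still lay above all P4 and P10 arrays, and the difference without it was 1.19 (adjusted p = 0.00158). Vsx1, a homeobox factor of bipolar cells, stood at 6.78, 6.69, 6.44 and 6.25 at P6, against 5.42, 5.00, 5.25 and 5.39 at P4 and 5.40, 5.89, 5.78 and 5.90 at P10, a difference of 1.04 ± 0.14 (SE, adjusted p = 5.8e-05). The Vsx1 call rested on size: it fell under 2-fold without P6 replicate 1 (0.96), P6 replicate 2 (0.99), P4 replicate 2 (0.99) or P10 replicate 1 (0.98), each with an adjusted p under 0.001. Vsx1 was also under 2-fold after quantile normalization again (0.946), cyclic loess (0.997) or array weights (0.942).

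Other bipolar markers were not called. Prkca, the kinase that marks rod bipolar cells, averaged 8.84 ± 0.18 at P6, 8.27 ± 0.26 at P4 and 9.33 ± 0.08 at P10 (SD, n = 4 each), a difference of 0.04. Trpm1, the cation channel of ON bipolar cells, averaged 5.95 ± 0.29 at P6, 5.61 ± 0.09 at P4 and 6.01 ± 0.10 at P10 (SD, n = 4 each), a difference of 0.14. Pcp2 (-0.09), Nyx (0.07) and Irx6 (0.06) were also close to 0. The list's mean level was 7.26, 7.04, 7.02 and 7.07 in P6 replicates 1 to 4, against 6.35 to 6.43 in the P4 arrays and 6.72 to 6.92 in the P10 arrays. The P6 arrays were all above both neighbours, and replicates 2 to 4 differed by little. Without P6 replicate 1, 3 of the 24 remained called, Isl1, Car10 and Grik1, and the median difference was 0.26. In pooled RNA of sorted cells, more cells of a type and more of its RNA per cell cannot be told apart.

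**Figure D2:**
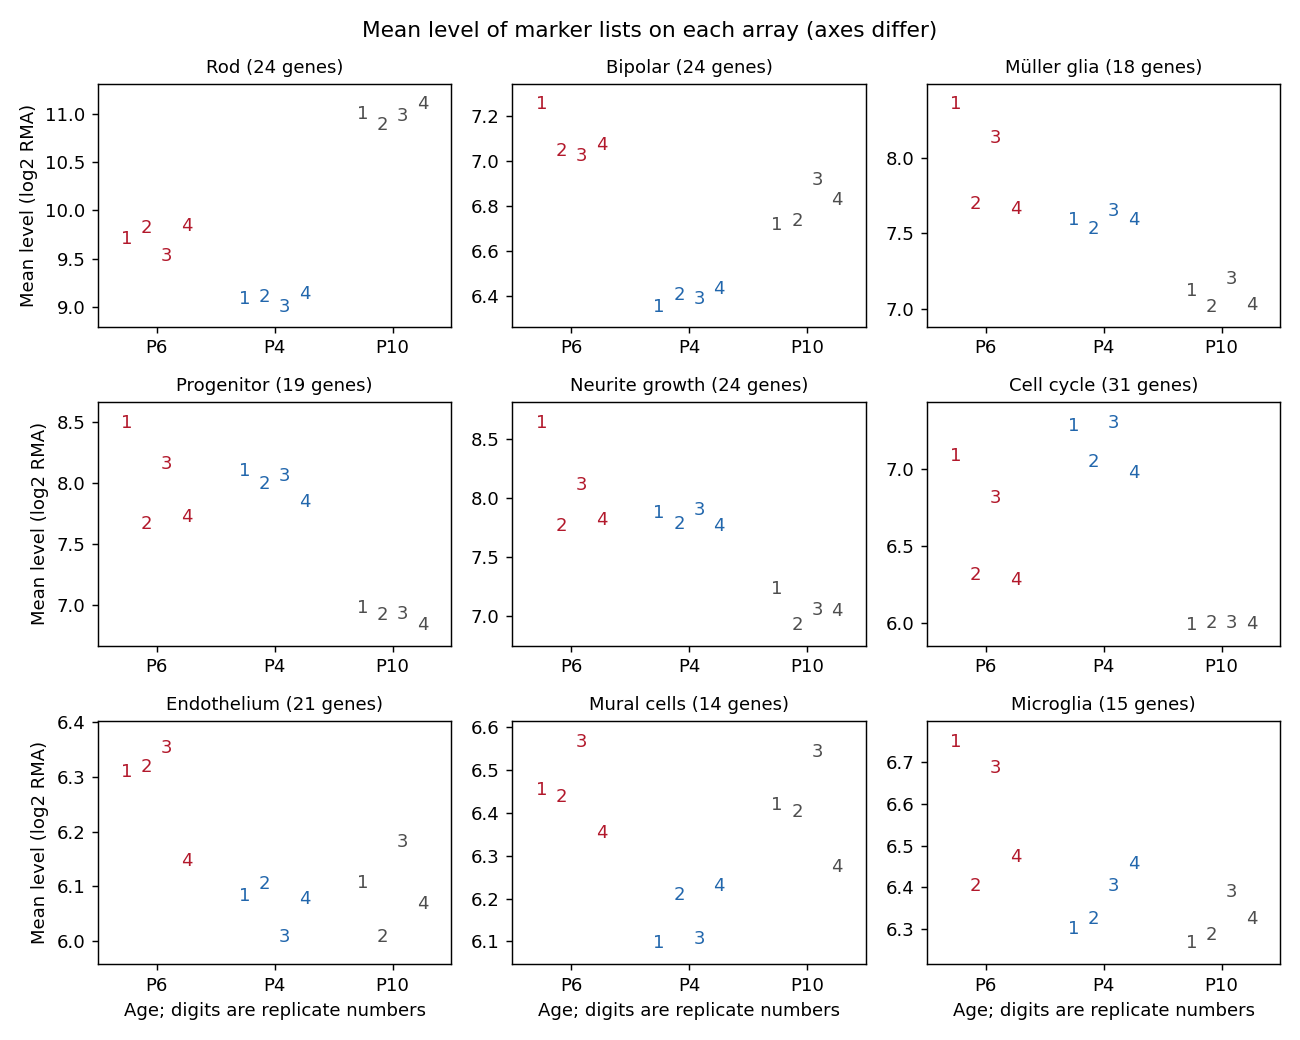
Mean log2 RMA level (vertical, a separate axis per panel that does not start at 0) of the measured genes of 9 lists in the P6, P4 and P10 arrays (horizontal), each array drawn as its replicate number. In the bipolar panel the 4 P6 arrays lie above all others. In the Müller, progenitor, neurite growth, cell cycle, microglia and, narrowly, mural cell panels P6 replicates 1 and 3 lie above replicates 2 and 4. The cone, ganglion cell, amacrine, horizontal and pigment epithelium lists, not drawn, had the same order.

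Müller glia genes were higher at P6 in a broader but less even way. Of 18 measured genes 2 were higher than the average (0.767% of all genes were), both as peaks, and 0 were lower. With no size threshold 11 were higher (5.16% of all genes were), and 17 lay above 0 (64.4% of all genes did). The median difference was 0.62, against 0.06 over all genes, or 0.44 without P6 replicate 1. Slc1a3, the glial glutamate transporter, stood at 9.78, 8.55, 9.43 and 7.57 at P6, against 7.54, 7.92, 7.71 and 7.67 at P4 and 6.99, 7.01, 6.63 and 6.67 at P10, a difference of 1.56 ± 0.24 (SE, adjusted p = 0.000215). P6 replicate 4 lay within the range of the P4 arrays. Rlbp1, the retinaldehyde-binding protein of Müller glia and pigment epithelium, stood at 8.43, 7.66, 8.42 and 8.24 at P6, against 6.76, 6.80, 7.45 and 7.08 at P4 and 6.81, 6.75, 7.15 and 6.53 at P10, a difference of 1.27 ± 0.16 (SE, adjusted p = 1.99e-05), with every P6 array above all 8 others. Smaller differences that passed adjusted p alone were those of Dbi (0.94), Gpr37 (0.87), Spon1 (0.86), Apoe (0.85), Vim (0.84), Car14 (0.66), Glul (0.57), Kcnj10 (0.43) and Sox9 (0.35). Aqp4, the water channel of mature Müller glia, differed by 0.04 and was not called. The list's mean level was 8.36, 7.70, 8.13 and 7.66 in P6 replicates 1 to 4, against 7.53 to 7.65 in the P4 arrays and 7.01 to 7.20 in the P10 arrays. Replicates 2 and 4 therefore lay just above the P4 arrays, and replicates 1 and 3 well above them. Both calls held without P6 replicate 1, Slc1a3 at 1.25 and Rlbp1 at 1.19, although Slc1a3 was then no longer a peak. The number of Müller genes called was 7 without P6 replicate 2 and 4 without P6 replicate 4. With P6 replicates 1 and 3 both left out, a setting chosen after seeing the data, it was 1, and Slc1a3 was at 0.79 (adjusted p = 0.0625).

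Of 19 measured progenitor genes 3 were higher at P6 than the average of P4 and P10 (Nfix, Zfp36l1 and Nfib, where 0.767% of all genes were), and 0 were lower. Of the 3 only Nfix was a peak, and the other two were above P10 but did not pass the test against P4. With no size threshold 8 were higher than the average (5.16% of all genes were), and the median difference was 0.56, against 0.06 over all genes, or 0.25 without P6 replicate 1. Nfix, a nuclear factor I transcription factor of late progenitors and glia, stood at 10.35, 9.51, 9.88 and 9.44 at P6, against 9.34, 8.14, 8.91 and 8.85 at P4 and 7.46, 7.52, 7.53 and 7.47 at P10, a difference of 1.64 ± 0.21 (SE, adjusted p = 2.54e-05). Its P6 arrays all lay above the P4 arrays, though narrowly, and far above the P10 arrays. Without P6 replicate 1 Nfix was called at 1.46 but not as a peak. Zfp36l1, an RNA-binding protein, had a difference of 1.42 ± 0.31 (SE, adjusted p = 0.00635) from the average but of 0.41 from P4. Nfib, another nuclear factor I gene, had 1.33 ± 0.24 (SE, adjusted p = 0.000929) from the average and -0.17 from P4. Both lost their calls without P6 replicate 1, Zfp36l1 at 1.08 (adjusted p = 0.0643) and Nfib at 0.97 (adjusted p = 0.00838). Hes1, Hes5 and Fgf15, Notch targets and a growth factor of progenitors, were near 0 (0.05, 0.02 and -0.03). Of the 19 genes 17 lay above 0 (64.4% of all genes did). The mean level of the progenitor list was 8.50, 7.67, 8.16 and 7.73 in P6 replicates 1 to 4, 7.85 to 8.10 in the P4 arrays and 6.84 to 6.98 in the P10 arrays, so P6 replicates 2 and 4 lay below every P4 array. The number of progenitor genes called was 5 without P6 replicate 2 and 1 without P6 replicate 1. Against the straight line between P4 and P10 at day 6, 1 was called. Zfp36l1 (1.09, adjusted p = 0.0723) and Nfib (0.83, adjusted p = 0.0678) were then not called.

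The neurite growth list, of guidance receptors, adhesion molecules and growth cone proteins, had 24 measured genes. Of these 6 were higher than the average of P4 and P10 (0.767% of all genes were) and 0 were lower. Epha7 alone of the 6 passed the test against P4, and the other 5 had adjusted p from 0.156 to 0.655 there and were above P10. With no size threshold 13 were higher than the average (5.16% of all genes were), and 23 lay above 0 (64.4% of all genes did), with a median difference of 0.67, against 0.06 over all genes. Without P6 replicate 1 the median was 0.45. The list's mean level was 8.64, 7.76, 8.12 and 7.82 in P6 replicates 1 to 4. In the P4 arrays it was 7.77 to 7.90 and in the P10 arrays 6.92 to 7.23. P6 replicate 2 thus lay just below every P4 array, and replicate 4 within their range. Tubb2b, a beta-tubulin of growing neurons, stood at 11.63, 11.39, 11.71 and 12.00 at P6, against 11.02, 11.21, 10.49 and 11.44 at P4 and 10.30, 8.88, 9.39 and 9.42 at P10, a difference of 1.42 ± 0.25 (SE, adjusted p = 0.00081). P6 overlapped with P4 there and lay above all P10 arrays, and without P6 replicate 1 the difference was 1.43. Cntn1, a contactin of axons, had 1.40 ± 0.16 (SE, adjusted p = 6.95e-06) and 1.19 without that array. Epha7, an ephrin receptor, was the only peak of the list at 1.04 ± 0.16 (SE, adjusted p = 0.000153), with 8.15, 7.47, 8.03 and 8.00 at P6, against 6.38, 6.14, 6.51 and 6.95 at P4 and 7.41, 6.76, 7.42 and 7.40 at P10. Its call fell under 2-fold without P6 replicate 1 (0.96), P4 replicate 2 (0.98) or P10 replicate 2 (0.96). The ephrin Efnb2 had 1.37 ± 0.33 (SE, adjusted p = 0.0116), the axon guidance receptor Robo1 had 1.02 ± 0.26 (SE, adjusted p = 0.0187) and the semaphorin Sema6a had 1.01 ± 0.24 (SE, adjusted p = 0.0107). These 3 also lost their calls without P6 replicate 1, at 1.01, 0.52 and 0.56. Efnb2 and Robo1 also lost theirs without P6 replicate 3 (adjusted p = 0.0575 and 0.0577). Robo1 fell under 2-fold without P4 replicate 2 (0.99), and Sema6a without P4 replicate 2 (0.97), P4 replicate 4 (1.00, just below the threshold) or P10 replicate 2 (0.94). Without P6 replicate 1, 2 of the 24 genes were called, Tubb2b and Cntn1, and without P4 replicate 2, 3 were. Against the straight line between P4 and P10 at day 6, 3 were called. Efnb2 (1.22, adjusted p = 0.0507), Robo1 (0.82, adjusted p = 0.111) and Sema6a (0.94, adjusted p = 0.0384) were then not called.

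**Figure D3:**
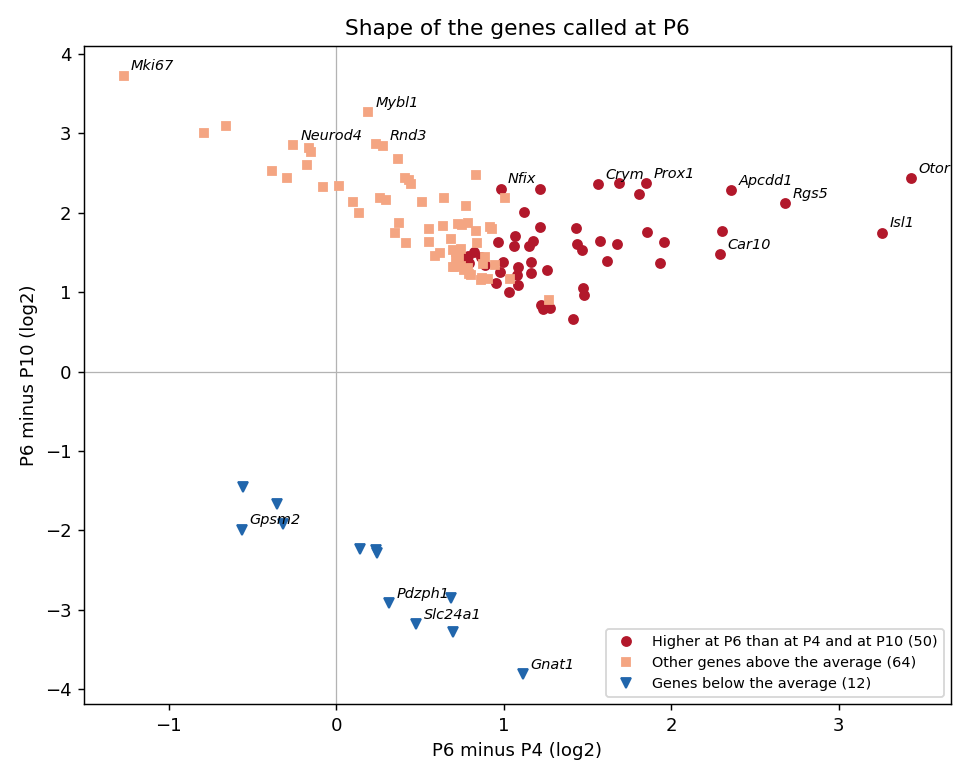
Difference of P6 from P4 (horizontal) and from P10 (vertical), both log2, for the 126 called genes. Red circles are the 50 peaks, orange squares the other 64 genes above the average, and blue triangles the 12 genes below it. All 12 triangles lie below 0 on the vertical axis and within about 1 of 0 on the horizontal axis.

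The 61 genes that were above P10 only were already high at P4 and P2. Their median level was 8.65 at P6, against 8.04 at P4 and 6.52 at P10, with 8.21 at P2 and 5.93 at P21. Of these 61 genes 16 were still called without P6 replicate 1, against 33 of the 50 peaks. Neurod4, a basic helix-loop-helix factor of neurogenic precursors, stood at 12.02, 11.90, 12.15 and 11.90 at P6, against 12.45, 12.28, 12.19 and 12.07 at P4 and 9.10, 9.16, 9.13 and 9.19 at P10, a difference of 1.30 ± 0.32 (SE, adjusted p = 0.0155). Its P6 and P4 arrays overlapped, and both were far above every P10 array. Neurod4 was not called without P6 replicate 1 (adjusted p = 0.0559) or P6 replicate 3 (adjusted p = 0.0524), with the difference still at 1.29 and 1.24. Against the straight line between P4 and P10 at day 6 it was 0.78 (adjusted p = 0.255). The proliferation marker Mki67 stood at 9.20, 7.83, 9.01 and 6.97 at P6, against 9.62, 9.08, 10.04 and 9.35 at P4 and 4.47, 4.79, 4.71 and 4.15 at P10, a difference of 1.23 ± 0.28 (SE, adjusted p = 0.00778). Its P6 arrays spread over more than 2 log2 units, and the P6 mean was 1.27 below that of P4 and 3.72 above that of P10. Mki67 lost its call without P6 replicate 1 (0.91, adjusted p = 0.0748) or P6 replicate 3 (0.97, adjusted p = 0.0580), and against the straight line between P4 and P10 it was 0.39 (adjusted p = 0.573). It was the only 1 of 31 cell cycle genes called, as Neurod4 was of 18 neurogenic precursor genes (0.767% of all genes were higher). The median difference of the cell cycle list was 0.06, as for all genes.

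Signalling genes were among the larger peaks. Apcdd1, a membrane inhibitor of Wnt signalling, stood at 8.96, 7.82, 8.49 and 8.26 at P6, against 5.67, 5.62, 6.14 and 6.67 at P4 and 6.15, 6.47, 5.85 and 5.95 at P10, a difference of 2.32 ± 0.24 (SE, adjusted p = 1.6e-06), with the P6 arrays above all others of both neighbours. Lgr5, a receptor for R-spondins that strengthen Wnt signals, had 1.03 ± 0.15 (SE, adjusted p = 0.000116) and fell to 0.74 without P6 replicate 1, which was the highest array at 8.10. These were 2 of 19 Wnt genes (0.767% of all genes were higher). Axin2 (-0.09), Lef1 (0.01) and Sp5 (0.07), targets of the pathway in many tissues, were not called. Tgfb2, a transforming growth factor, stood at 9.64, 7.89, 8.11 and 8.30 at P6, against 6.45, 6.72, 6.57 and 6.98 at P4 and 6.42, 6.15, 6.14 and 6.28 at P10, a difference of 2.02 ± 0.21 (SE, adjusted p = 1.35e-06). It was the only 1 of 20 BMP and TGF-beta genes called (0.767% of all genes were higher), and without P6 replicate 1 it was at 1.64. Ndnf, a secreted neurotrophic factor, had 2.04 ± 0.23 (SE, adjusted p = 5.76e-06), and 1.77 without that array.

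Further large peaks came from varied families. Prox1, a homeobox factor of horizontal and AII amacrine cells, stood at 9.44, 8.59, 9.37 and 8.95 at P6, against 8.03, 6.32, 7.24 and 7.36 at P4 and 6.38, 7.12, 6.47 and 6.90 at P10, a difference of 2.11 ± 0.28 (SE, adjusted p = 2.9e-05). It was the only called gene of 9 horizontal cell genes (0.767% of all genes were higher). The other defining factors Onecut1 (0.05) and Lhx1 (0.09) were near 0. Kcnma1, the pore subunit of the BK potassium channel, had the smallest P6 spread of the peaks named here (SD 0.18). Its levels were 8.18, 7.86, 7.83 and 8.12 at P6, against 5.98, 6.08, 5.82 and 6.29 at P4 and 6.53, 6.28, 6.47 and 6.17 at P10, a difference of 1.80 ± 0.13 (SE, adjusted p = 9.21e-09), and 1.73 without P6 replicate 1. Crym, a thyroid hormone-binding crystallin, stood at 10.93, 9.33, 10.78 and 10.10 at P6, against 8.64, 8.49, 8.73 and 9.02 at P4 and 7.93, 7.52, 8.25 and 8.01 at P10, a difference of 1.96 ± 0.22 (SE, adjusted p = 5.44e-06). P6 was above every P4 and P10 array in Crym, and replicate 2 was the lowest P6 array. Prkg1, a cGMP-dependent kinase, had 2.03 ± 0.27 (SE, adjusted p = 2.54e-05), and Nyap2, an adaptor of neuronal PI3 kinase signalling, had 1.81 ± 0.20 (SE, adjusted p = 4.05e-06). Gsta4, a glutathione transferase, had 1.76 ± 0.24 (SE, adjusted p = 3.99e-05), and Lrrc4c, a synaptic adhesion protein, had 1.64 ± 0.28 (SE, adjusted p = 0.000606). These last 4 kept their calls without P6 replicate 1, at 1.78, 1.62, 1.53 and 1.35, and Gsta4 was then not a peak.

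The endothelial, mural cell and microglial lists had 1 gene called in each, of 21, 14 and 15 measured (0.767% of all genes were higher). Their median differences were 0.09, 0.03 and 0.17, against 0.06 over all genes. Above 0 lay 17 of 21, 9 of 14 and 13 of 15 genes (64.4% of all genes did). With no size threshold 1, 1 and 2 were higher (5.16% of all genes were), and 1 mural cell gene was lower (1.04% of all genes were). Rgs5, a G-protein regulator known from pericytes, stood at 9.57, 6.85, 10.35 and 6.57 at P6, against 4.95, 5.45, 5.66 and 6.56 at P4 and 6.06, 6.57, 6.43 and 5.81 at P10, a difference of 2.40 ± 0.52 (SE, adjusted p = 0.00581). P6 replicates 1 and 3 were more than 2.7 log2 units above replicates 2 and 4, and leaving out replicate 1 ended the call (adjusted p = 0.052). With P6 replicates 1 and 3 both left out, Rgs5 was at 0.78 (adjusted p = 0.525). At P12 its levels were 8.85, 7.48, 7.36 and 8.71, all above P6 replicates 2 and 4. The other 13 measured mural cell genes were not called, with Pdgfrb at 0.04, Acta2 at 0.02 and Kcnj8 at -0.13, and the list's mean level was 6.35 to 6.56 at P6, 6.10 to 6.23 at P4 and 6.27 to 6.54 at P10. Kdr, a VEGF receptor found on endothelium and on retinal progenitors, had 1.43 ± 0.25 (SE, adjusted p = 0.000645), and 1.08 without P6 replicate 1. The other 20 endothelial genes were not called, with Pecam1 at 0.15 and Tie1 at 0.03, and the list's mean level was 6.15 to 6.35 at P6, 6.01 to 6.10 at P4 and 6.01 to 6.18 at P10. Tyrobp, an adaptor of microglia, had 1.01 ± 0.27 (SE, adjusted p = 0.0243) and lost its call without P6 replicate 1 (0.64), P6 replicate 3 (0.85), P4 replicate 4 (0.99), P10 replicate 1 (0.96) or P10 replicate 2 (0.95). The other 14 microglial genes were not called, with P2ry12 at 0.01 and Tmem119 at -0.02, and the list's mean level was 6.40 to 6.75 at P6, 6.30 to 6.46 at P4 and 6.26 to 6.39 at P10. No member of the cone, amacrine, ganglion cell, astrocyte, fibroblast, pigment epithelium, erythroid or lens lists was called, with medians from -0.04 (erythroid, 3 genes) to 0.25 (ganglion cell). Among the lists of functions, none was called for the ribbon synapse, outer segment and cilium, photoreceptor regulators, immediate early genes, heat shock, Notch, extracellular matrix, cell death, cholesterol synthesis, oxidative phosphorylation or ribosomal proteins, with medians from -0.17 (outer segment and cilium) to 0.38 (ribosomal proteins, 14 genes). The part of other cell types in these results was not tested.

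Rod genes made up part of the few deficits. Of 24 measured rod genes 3 were lower than the average of P4 and P10 (0.0808% of all genes were) and 0 were higher, and 7 were lower with no size threshold (1.04% of all genes were). Their median difference was -0.14, against 0.06 over all genes. Slc24a1, the sodium, calcium and potassium exchanger of rod outer segments, stood at 6.93, 7.63, 6.80 and 7.30 at P6, against 6.98, 6.69, 6.55 and 6.52 at P4 and 10.30, 10.14, 10.36 and 10.59 at P10, a difference of -1.35 ± 0.12 (SE, adjusted p = 1.74e-07). Gnat1, the alpha subunit of rod transducin, stood at 8.97, 9.30, 8.65 and 9.13 at P6, against 8.25, 7.02, 8.19 and 8.12 at P4 and 12.85, 12.69, 12.82 and 12.94 at P10, a difference of -1.35 ± 0.15 (SE, adjusted p = 4.75e-06). In both genes every P6 array was far below every P10 array. Gnat1 was already above P4, by 1.12 (adjusted p = 0.000294), and Slc24a1 did not pass that test (0.48, adjusted p = 0.0704). Guca1b, a guanylate cyclase activator, stood at 7.57, 7.25, 6.76 and 7.30 at P6, against 7.27, 7.41, 6.83 and 6.39 at P4 and 9.75, 8.90, 9.83 and 9.54 at P10, a difference of -1.02 ± 0.22 (SE, adjusted p = 0.00494). Its call fell under 2-fold without P6 replicate 3 (-0.87), P4 replicate 1 (-0.97), P4 replicate 2 (-0.95), P10 replicate 1 (-0.98) or P10 replicate 3 (-0.97). None of the 3 was below P4.

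All 12 deficits were below P10 and none passed the test below P4: 11 did not pass the test against P4, and Gnat1 was above it. In 0 of the 12 did all 4 P6 arrays lie below the 8 arrays of P4 and P10 (0.162% of all genes). Since P6 is nearer in time to P4 than to P10, the plain average lies above a steady climb. Against the straight line between P4 and P10 at day 6, 1 of the 12 was called, Gpsm2, a regulator of spindle orientation that was singled out after its values were seen. Its levels were 6.44, 5.81, 6.31 and 6.17 at P6, against 7.27, 6.70, 6.78 and 6.22 at P4 and 8.08, 7.80, 8.28 and 8.54 at P10, with -1.28 ± 0.19 (SE, adjusted p = 0.000116) against the average and -1.04 against the line (adjusted p = 0.00324). Slc24a1 was then at -0.74 and Gnat1 at -0.53. Of the 70 genes called as higher against the line, 67 were among the 114, and they held 48 of the 50 peaks and 19 of the 61 genes above P10 only. The deficits that fell under 2-fold without P6 replicate 1 were 3. Cdr2 had -1.08 ± 0.18 (SE, adjusted p = 0.000425), and -0.98 without that array. Grtp1, a TBC domain protein, had -1.05 ± 0.13 (SE, adjusted p = 1.17e-05), and -0.94 without it. Polg2, the accessory subunit of the mitochondrial DNA polymerase, had -1.00 ± 0.15 (SE, adjusted p = 9.39e-05), and -0.86 without it. Polg2 also fell under 2-fold without P6 replicate 2 (-0.98), P4 replicate 1 (-0.93), P4 replicate 2 (-0.97) or P10 replicate 1, 3 or 4 (-0.99 to -1.00).

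The excess leaned on P6 replicate 1. Without it, 49 of the 114 higher genes kept their calls, 65 lost them, and 2 others gained one, Olfr20 and Tbc1d9. All 114 kept their sign, with a lowest value of 0.52, and the median of the 114 was 1.02, against 1.22 with all 4 arrays. Of the 65 losses 54 were below 2-fold, and 31 of these 54 still had an adjusted p under 0.05. All 27 peaks that were called without it were among the 50. As a description of genes chosen on a P6 mean that includes this array, P6 replicate 1 was the highest P6 array in 94 of the 114 higher genes (82.5%), against 35.6% of all genes. Replicate 3 was the highest in 15 (13.2%), against 20.3% of all genes. In 82 of the 114 (71.9%) replicates 1 and 3 both lay above replicates 2 and 4, against 22.6% of all genes, a count open to the same choice. The median excess of the 50 peaks over the average of P4 and P10 was 2.10 in replicate 1, 0.96 in replicate 2, 1.51 in replicate 3 and 1.04 in replicate 4, so all 4 arrays showed it at unequal size.

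**Figure D4:**
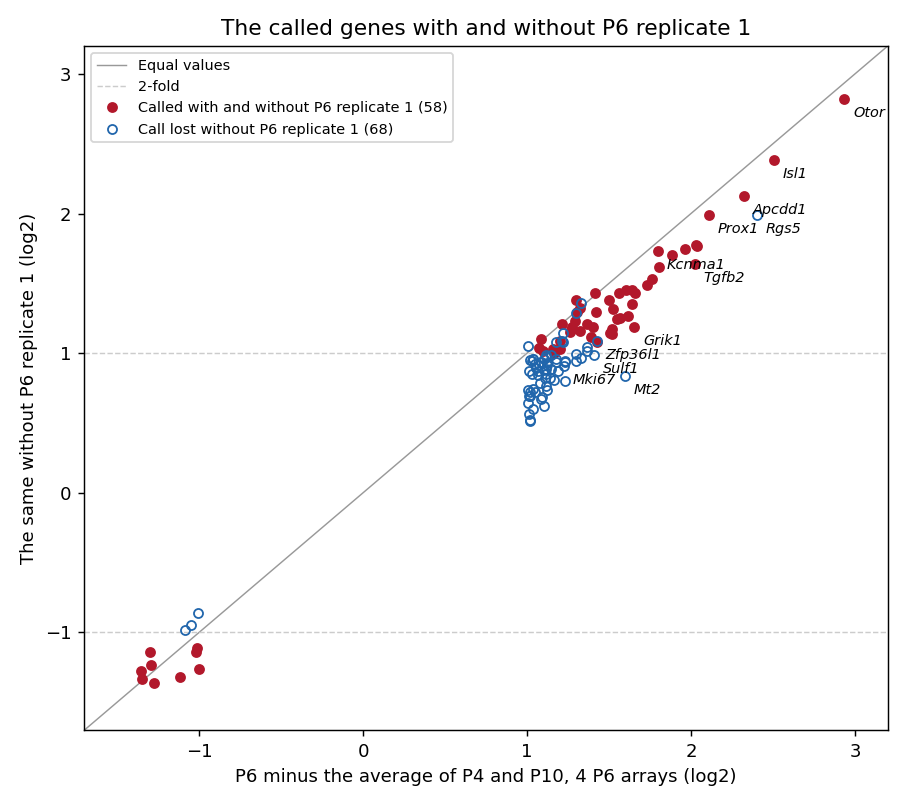
Difference of P6 from the average of P4 and P10 (log2) with all 4 P6 arrays (horizontal) and without P6 replicate 1 (vertical) for the 126 called genes. Filled red marks kept their call (49 higher and 9 lower genes), open blue marks lost it (65 higher and 3 lower genes), the diagonal marks equal values and the dashed lines 2-fold. Of the 65 lost higher genes 54 lie under the upper dashed line, down to 0.52, and the rest lie above it. Of the 65, 34 did not pass the adjusted p threshold, among them Rgs5, which lies near 2 and was lost on its spread.

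Some of the genes that lost their calls without P6 replicate 1 were among the larger excesses. Mt2, a metallothionein, stood at 9.83, 5.97, 7.64 and 6.79 at P6, against 6.60, 6.22, 6.75 and 6.64 at P4 and 5.04, 5.40, 4.98 and 6.07 at P10, a difference of 1.60 ± 0.47 (SE, adjusted p = 0.0408). P6 replicate 1 was more than 2 log2 units above the next P6 array, replicate 2 was below every P4 array, and the difference without replicate 1 was 0.84 (adjusted p = 0.304). Its call was also lost without P6 replicate 3 or any 1 of P4 replicates 1, 2 and 4 and P10 replicates 1, 2 and 3, with adjusted p from 0.0535 to 0.0983. Sulf1, a heparan sulfatase, had 1.41 ± 0.24 (SE, adjusted p = 0.00069) and 0.99 without replicate 1, with an adjusted p of 0.00309, so that it missed only the size threshold. Pfkfb3, a glycolytic regulator with a smaller excess, had 1.01 ± 0.21 (SE, adjusted p = 0.00437) and 0.74 without replicate 1. Pfkfb3 was the only 1 of 18 hypoxia genes called (0.767% of all genes were higher). It also fell under 2-fold without P4 replicate 3 (0.93), P4 replicate 4 (0.96), P10 replicate 1 (0.94) or P10 replicate 4 (0.99). At the other end, 17 of the 41 called genes described by the selection rule kept their call under every alternative that was run on them. These were Otor, Isl1, Apcdd1, Prox1, Ndnf, Prkg1, Tgfb2, Crym, Car10, Nyap2, Kcnma1, Gsta4, Grik1, Nfix, Rlbp1, Tubb2b and Cntn1.

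**Figure D5:**
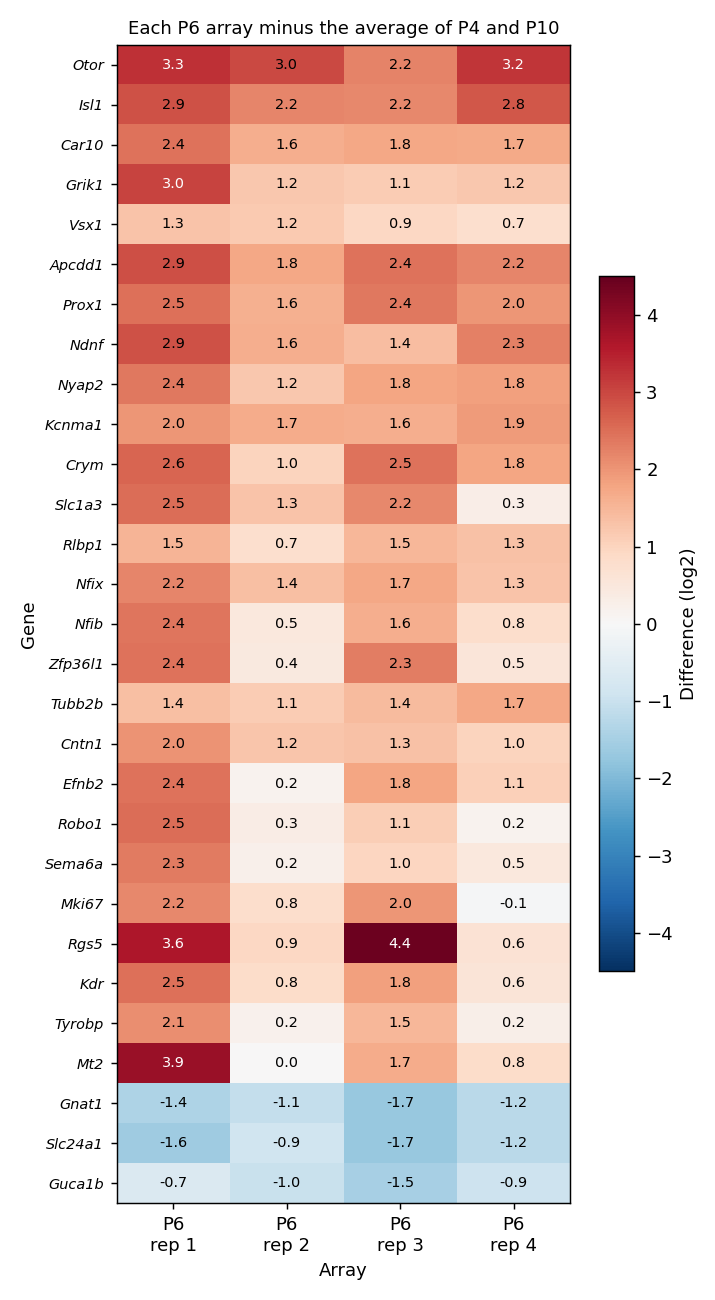
Each P6 array (columns) minus the average of the P4 and P10 means, log2, for 29 called genes (rows), with the value printed in each cell and red for higher and blue for lower. Otor, Isl1 and Kcnma1 are even across the 4 arrays, whereas Rgs5, Mt2, Zfp36l1 and Mki67 are high in replicates 1 and 3.

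The spread at P6 was wider than at its neighbours. The median SD over all genes was 0.208 at P6, 0.167 at P4 and 0.144 at P10, and 0.166 at P6 without replicate 1. For the 50 peaks it was 0.531 at P6, 0.292 at P4 and 0.205 at P10. The fit gave each gene 1 spread shared by all 28 arrays. Where P6 was the wider age, the printed SE and adjusted p can therefore understate its error.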

How the data were processed

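Values were the deposited log2 levels of 28 arrays, which the authors made with gene-level RMA (Affymetrix Expression Console 1.3.1.187, core probe sets, mm8 mouse build), per the submitters' processing notes. RMA compresses differences near background and saturation, and no detection call was used. Of 16755 transcript clusters 14996 had 1 gene symbol, 1019 had several and 740 none. The cluster with the highest mean was taken for each of 135 genes with several clusters, leaving 14860 genes. The number of arrays limits the precision.

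Groups are the labelled ages, and no batch is given. A linear model estimated each age's mean from all 28 arrays (21 residual degrees of freedom) with limma 3.58.1 in R 4.3.3, with eBayes at its defaults. The contrast was the P6 mean minus the average of the P4 and P10 means, and adjusted p-values are over all 14860 genes. The procedure was tested on simulated data. The numbered replicates of P6, P4 and P10 share only a number.

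Named genes were the 15 largest excesses and up to 10 deficits whose P6 arrays did not overlap with P4 and P10, up to 12 peaks and 6 troughs, up to 6 called members of each of 33 gene lists, the 5 largest excesses and 3 deficits lost without P6 replicate 1, and Nrl. Cell type lists with no called member were described only by the range of their medians. Uncalled list members were named as background. The comparison and the lists (17 of cell types, 16 of functions) were chosen with earlier results of these data known. Alternatives left out each P6, P4 and P10 array, added the replicate number as a block, fitted 12 arrays, used a straight line between P4 and P10, renormalized, weighted arrays, or changed filters and thresholds. RefSeq promoter windows (GRCm38.p6) supplied sequences. Genes that are not in the tables used are not analysed here.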

Additional observations from a re-analysis of the deposited data

Results flagged for a closer look

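In 9 of 126 groups of 4 arrays tested over the described genes, 1 array stood far from the other 3, where chance gives about 5% of groups. P6 replicate 1 was high for Car10, at 8.84 against 8.17 in the next array, and for Grik1, at 8.54 against 6.72. P4 replicate 3 was low for Grtp1 at 6.27, and P4 replicate 2 was low for Gnat1 at 7.02 against 8.12 in the next array. P10 replicate 3 was high for Grik1 at 6.18. P10 replicate 2 was low for Cntn1 at 6.17, for Epha7 at 6.76, for Sema6a at 6.35 and for Polg2 at 10.00.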

How the results depend on the processing

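Counts are given as higher genes, lower genes, peaks and troughs, against 114, 12, 50 and 0. Leaving out 1 array at a time gave 51 to 189 higher genes, 8 to 14 lower genes, 27 to 79 peaks and 0 troughs each time. The straight line gave 70 higher and 1 lower genes, and 98.6% of called genes were higher, against 90.5%. The 1.5-fold threshold gave 370, 47, 83 and 1. Restriction to genes with a mean level above 7, where fewer genes were tested, gave 48 higher genes and 15 peaks. The median level of the 50 peaks was 6.37 at P4 and 6.30 at P10. The median gene had a mean of 6.92 over all arrays, so many peaks were dim at the neighbouring ages. The 12-array fit gave 28 peaks and array weights gave 32, and the cause was not tested. With P6 replicates 1 and 3 both left out, a setting chosen after seeing the data, there were 33 higher genes, 18 peaks and 3 troughs, 80.5% of called genes were higher, and the difference of Nrl was 0.046, against -0.06 with all arrays, neither called. The replicate block gave 115, 12, 48 and 0, and correlations of same-numbered arrays ran from -0.07 to 0.14, so numbers did not pair the arrays. Quantile normalization again gave 78, 15, 37 and 0, and cyclic loess gave 92, 15, 39 and 0. Of called genes 83.9% and 86.0% were then higher. The median of all genes was -0.023 and -0.0009, against 0.055. Under both, Mt2, Vsx1, Epha7, Lgr5, Robo1, Sema6a, Pfkfb3 and Tyrobp were not called. Other counts over all genes stayed within 1.5 times, and of the described genes Nrl alone reversed.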

Other observations

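With no size threshold 4 genes were below both neighbours at P6, all under 2-fold and chosen here after their values were seen. Fam78b averaged 7.17 ± 0.32 at P6, against 7.68 ± 0.20 at P4 and 8.07 ± 0.17 at P10 (SD, n = 4 each). Osbpl7, an oxysterol-binding protein family member, averaged 7.56 ± 0.28 at P6, against 8.14 ± 0.21 at P4 and 8.08 ± 0.09 at P10. Commd1, a regulator of copper handling and protein sorting, averaged 8.95 ± 0.05 at P6, against 9.44 ± 0.16 at P4 and 9.25 ± 0.03 at P10. Anxa7, an annexin, averaged 7.12 ± 0.08 at P6, against 7.63 ± 0.08 at P4 and 7.77 ± 0.18 at P10. Their differences from the average ran from -0.71 (Fam78b) to -0.40 (Commd1), with limma adjusted p of 0.000358 to 0.00316, and without P6 replicate 1 they were -0.62 for Fam78b, -0.62 for Osbpl7, -0.38 for Commd1 and -0.56 for Anxa7.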
